A study of Homo sapiens with 9 samples.

Results

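The 9 genes described here make or rearrange the choline and ethanolamine head groups of membrane phospholipids: CHKA, CHKB, ETNK1, PCYT1A, PCYT2, CHPT1, CEPT1, SELENOI and PEMT. They were taken by gene symbol out of 14985 tested genes, and all 9 held at least 1 FPKM (fragments per kilobase of transcript, scaled to the size of the library) in all 9 samples. The set was chosen by pathway around CHPT1, which was selected on its own fall in these samples. Among the 230 genes that were lower by over 2-fold with both FIBP siRNAs, CHPT1 stood at rank 9 by its mean difference. Its levels against Scramble are therefore given as a description, with no test.

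Cells build phosphatidylcholine, the most abundant membrane lipid, from choline through the Kennedy pathway. A kinase adds phosphate to choline, a cytidylyl transferase activates the product to CDP-choline, and a phosphotransferase joins it to diacylglycerol. A parallel set of enzymes handles ethanolamine to make phosphatidylethanolamine, which PEMT can methylate into phosphatidylcholine, a route best known in liver.

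The cells were H1299, a human lung cancer line that is widely used (non-small cell type). All 9 samples were transfected with 100 nM siRNA and taken at 48 h: 3 with the scrambled siRNA (Scramble), 3 after Si-FIBP#1 and 3 after Si-FIBP#2, both of which target FIBP, the gene the study is about. The depletion is therefore transient and was made in 1 cell line. The study speaks in general of independent repeats, but the labels do not say whether the 3 samples of a group came from separate cultures, so p-values measure the spread between these samples, which may be technical. Both depleted groups were compared with the same Scramble samples.

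FIBP itself, read in every sample first, was at 88.38, 79.49 and 77.74 FPKM in Scramble, at 7.49, 7.77 and 4.30 after Si-FIBP#1 and at 7.13, 5.92 and 8.21 after Si-FIBP#2. The means of the depleted groups were 7.96% and 8.66% of the Scramble mean. The libraries were of similar depth, an estimated 15600000 to 18500000 fragments. The 10 most abundant genes took 11.4% to 11.6% of all FPKM in Scramble, 14.9% to 15.1% after Si-FIBP#1 and 12.9% to 13.4% after Si-FIBP#2, and their part in the results below was not tested. Of the markers, KRT18, KRT8 and VIM were abundant in all 9 samples, and EPCAM, CDH1, NKX2-1, SFTPC and PTPRC stayed at or below 0.28 FPKM. KRT18 averaged 476 FPKM in Scramble, 209 after Si-FIBP#1 and 175 after Si-FIBP#2.

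CHPT1 (cholinephosphotransferase 1, ENSG00000111666) carries out the last step of the choline branch. In the GRCh38 annotation of GENCODE release 29 it lies on the plus strand of chromosome 12, chr12:101696947-101744140. Its most abundant transcript, ENST00000229266, has 9 exons and a short 3′ UTR of 129 bases. An siRNA can also lower mRNAs other than its target through bases 2 to 8 of its guide strand, so the transcripts of the members were searched for the complement of those bases. Going by the siRNA sequences in the study's methods, TTCAGCA is this complement for Si-FIBP#1. For Si-FIBP#2 it reads TTTGCTA. The search was made after the members' values had been seen. CHPT1 held 1 match to each, shown here in capitals on the mRNA strand: the first in the 3′ UTR at the end of exon 9, chr12:101729041-101729047, and the second in the coding sequence of exon 6, chr12:101723300-101723306.
CHPT1, Si-FIBP#1 match in the 3′ UTR: tgttatacctatTTCAGCAaataaaatatt
CHPT1, Si-FIBP#2 match in the coding sequence: tttggatgtgtcTTTGCTAaagtctcacaa

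TTCAGCA was found in the 3′ UTR of 13.4% of 11930 tested genes, by their most abundant transcript, and TTTGCTA in the coding sequence of 7.17%. The search covered whole transcripts, so a match in the other region would have been shown too. TTCAGCA was in the coding sequence of 21.3% of these genes, and TTTGCTA in the 3′ UTR of 12.9%. Most 3′ UTRs are longer than that of CHPT1, with a median of 904 bases. Among the 1782 genes with a 3′ UTR of 65 to 258 bases, 1.40% held TTCAGCA. The leading transcripts of other members held matches too. SELENOI had 2 for Si-FIBP#1 and ETNK1 had 1 for Si-FIBP#2, all in the 3′ UTR, and they are shown so that every match in a leading transcript is given. The SELENOI matches lie at chr2:26393782-26393788 and chr2:26394441-26394447, and that of ETNK1 at chr12:22690255-22690261.
SELENOI, first Si-FIBP#1 match: agcagactgctcTTCAGCAgcacatatact
SELENOI, second Si-FIBP#1 match: ttactgttgcctTTCAGCAttagactttga
ETNK1, Si-FIBP#2 match: tgatgtaggtgtTTTGCTAtgcctcagaaa
The leading PEMT transcript held neither. A match is a description of the sequence, and its part in any level was not tested.

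CHPT1 was the member with the largest difference between the groups. Its gene sums were 34.36, 36.99 and 36.17 FPKM in Scramble. With Si-FIBP#1 they were 6.22, 8.24 and 7.25 FPKM, and after Si-FIBP#2 they were 11.88, 9.34 and 10.93 FPKM. All 6 depleted samples lay far below the lowest Scramble sample, and the 2 depleted groups did not overlap each other. The means were 35.8 ± 1.35 (SD, n = 3), 7.24 ± 1.01 and 10.7 ± 1.28 FPKM, so that 20.2% and 29.9% of the Scramble level remained. The difference in log2(FPKM + 1), the scale of every difference below, was -2.17 (SE 0.11) after Si-FIBP#1 and -1.66 (SE 0.11) after Si-FIBP#2. The comparison between the siRNAs was not itself used to choose CHPT1, though the values of both depleted groups were. In it, the level of CHPT1 was higher after Si-FIBP#2 than after Si-FIBP#1 by 0.51 (SE 0.11, limma adjusted p = 0.0123). CHPT1 was the only one of the 9 members that passed the test between the siRNAs. Over all genes, 9.58% were called higher and 5.8% lower in that comparison, and 0.561% were called with over 2-fold, which no member reached. SYCP3, which overlaps the 3′ end of CHPT1 on the opposite strand, was at most 0.14 FPKM in any sample.

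**Figure D1:**
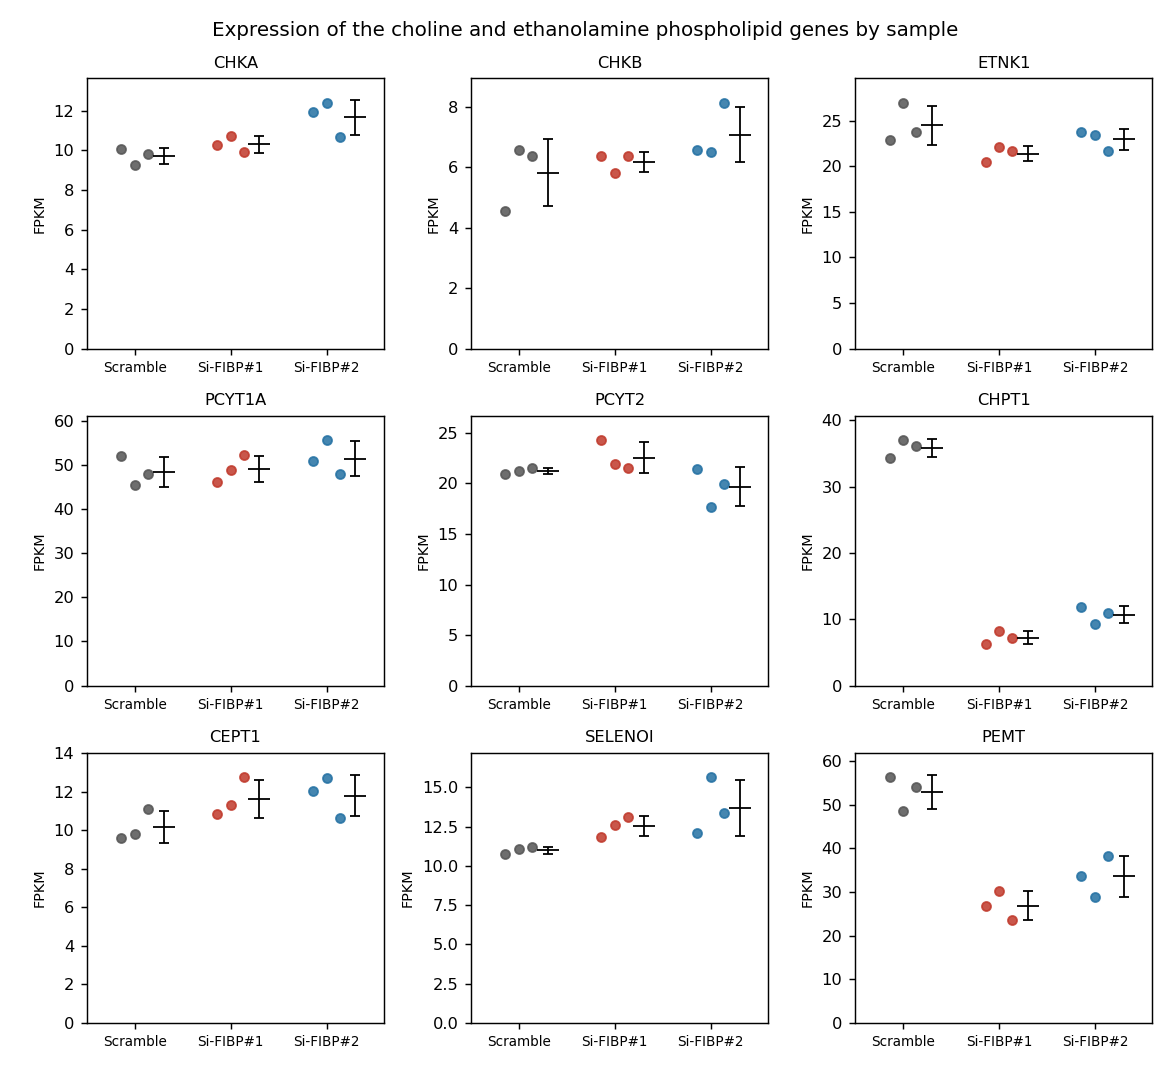
FPKM (vertical axis, from 0) of the 9 genes in each sample of the 3 groups, with points for samples and the black bar for the mean ± SD of 3 samples. For CHPT1 and PEMT all 6 depleted samples lie below the 3 Scramble samples, for SELENOI all 6 lie above them, and for the other 6 genes the depleted samples overlap Scramble.

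The level of CHPT1 was carried mainly by ENST00000229266. It was at 26.70, 27.48 and 29.66 FPKM in Scramble, at 3.01, 5.47 and 3.99 after Si-FIBP#1 and at 6.97, 4.79 and 7.73 after Si-FIBP#2. Its share of the CHPT1 sum was 78.0% ± 3.86, 56.6% ± 9.10 and 60.2% ± 9.81 (SD, n = 3). The other CHPT1 transcripts together were lower as well, at 6.51 to 9.51 FPKM in Scramble, 2.77 to 3.26 after Si-FIBP#1 and 3.20 to 4.91 after Si-FIBP#2. Among them, ENST00000549128 was at 2.30, 6.14 and 0.00 FPKM in Scramble, at 0.00 in all 3 samples after Si-FIBP#1 and at 1.00, 2.08 and 0.00 after Si-FIBP#2, and is named after its values were seen. ENST00000549872, which ends at an earlier position and has another 3′ UTR of 614 bases, was at 1.97, 1.53 and 3.94 FPKM in Scramble, at 2.34, 1.71 and 2.16 after Si-FIBP#1 and at 2.71, 1.62 and 1.94 after Si-FIBP#2, and the 3 groups overlapped. The difference of this transcript was -0.13 with either siRNA, and 0.16 with either when the Scramble sample at 3.94 FPKM was left out. In their release 29 models, ENST00000549872 and ENST00000549128 both hold the TTTGCTA of Si-FIBP#2 in the coding sequence, at the same position as in ENST00000229266, and neither holds TTCAGCA. Only about 54 to 126 fragments stood behind each value of ENST00000549872, against 84 to 765 for ENST00000229266.

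CEPT1 and SELENOI belong to the same enzyme family as CHPT1. CEPT1 uses both CDP-choline and CDP-ethanolamine, and SELENOI, a selenoprotein, uses CDP-ethanolamine. CEPT1 was at 9.61, 9.79 and 11.13 FPKM in Scramble, at 10.85, 11.34 and 12.76 after Si-FIBP#1 and at 12.07, 12.74 and 10.62 after Si-FIBP#2. The groups overlapped, and the differences of 0.18 (SE 0.09, limma adjusted p = 0.142) and 0.20 (SE 0.09, adjusted p = 0.109) did not pass the test. DRAM2, which overlaps CEPT1 by 590 bases on the opposite strand, was at 10.65 to 16.04 FPKM. SELENOI was at 10.73, 11.06 and 11.18 FPKM in Scramble, at 11.85, 12.60 and 13.14 after Si-FIBP#1 and at 12.12, 15.65 and 13.36 after Si-FIBP#2. All 6 depleted samples lay above Scramble, by a small amount. SELENOI rose after Si-FIBP#2, by 0.29 (SE 0.09, limma adjusted p = 0.0239), and after Si-FIBP#1 the difference of 0.17 (SE 0.09, adjusted p = 0.14) did not pass. The call for Si-FIBP#2 was lost with median ratio scaling and when any 1 Scramble sample or Si-FIBP#2 replicate 2 was left out, with adjusted p up to 0.114.

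By mRNA level, the order of these genes was therefore not the same in the 3 groups. CHPT1 was chosen for its fall against Scramble, so the ratios, shares and sums given here restate that fall and are no separate result. In FPKM, which is a level per length and so can be set side by side between genes, CHPT1 was 3.53 ± 0.27 times CEPT1 in Scramble (SD, n = 3). The ratio was 0.62 ± 0.09 after Si-FIBP#1 and 0.92 ± 0.16 after Si-FIBP#2. With Si-FIBP#1 all CHPT1 values lay below all CEPT1 values, and after Si-FIBP#2 the values of the 2 genes overlapped. Of the summed level of the 3 phosphotransferases, CHPT1 took 62.9% in Scramble, 23.0% after Si-FIBP#1 and 29.7% after Si-FIBP#2. CHPT1 and CEPT1 together, the enzymes that use CDP-choline, summed to 46.0 ± 1.79, 18.9 ± 1.59 and 22.5 ± 1.26 FPKM.

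PEMT (phosphatidylethanolamine N-methyltransferase, ENSG00000133027, minus strand, chr17:17505563-17591708) fell with both siRNAs. It was at 56.28, 48.61 and 53.96 FPKM in Scramble, at 26.78, 30.25 and 23.51 after Si-FIBP#1 and at 33.55, 28.75 and 38.33 after Si-FIBP#2. All 6 depleted samples lay below the Scramble samples, while the depleted groups overlapped each other. PEMT fell by 0.96 (SE 0.12) after Si-FIBP#1, at a limma adjusted p of 1.3e-04, and by 0.65 (SE 0.12) after Si-FIBP#2, at 0.00137. These leave 50.7% and 63.3% of the Scramble mean, and the fall after Si-FIBP#1 was just short of 2-fold on the scale tested. The value after Si-FIBP#2 was higher than after Si-FIBP#1 by 0.31 (SE 0.12, 95% interval 0.05 to 0.57), which did not pass (adjusted p = 0.107). It passed without Si-FIBP#2 replicate 2, at an adjusted p of 0.0335. The leading transcript ENST00000255389, with 7 exons, held 83.3% of PEMT in Scramble, 83.0% after Si-FIBP#1 and 86.5% after Si-FIBP#2, and was lower with both (adjusted p = 7.7e-04 and 0.00822).

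CHPT1 and PEMT were the members that were lower in all 6 depleted samples, so their promoters are shown, from RefSeq (GRCh38.p14), 250 bases before to 50 after the annotated start, on the gene's own strand. Capitals mark the GC box GGGCGG on either strand, with neighbouring matches run together. The CHPT1 promoter lies at chr12:101697390-101697689 and the PEMT promoter at chr17:17591659-17591958. The PEMT stretch covers base 17591700, where ENST00000255389 begins in release 29. Use of that promoter by the transcript was not measured.
CHPT1 promoter: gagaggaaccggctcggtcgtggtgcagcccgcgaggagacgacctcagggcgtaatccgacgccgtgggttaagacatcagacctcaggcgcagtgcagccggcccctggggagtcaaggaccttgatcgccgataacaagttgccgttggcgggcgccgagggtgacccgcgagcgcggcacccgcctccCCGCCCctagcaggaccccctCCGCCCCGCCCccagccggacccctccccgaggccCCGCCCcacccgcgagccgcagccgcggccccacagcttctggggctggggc
PEMT promoter: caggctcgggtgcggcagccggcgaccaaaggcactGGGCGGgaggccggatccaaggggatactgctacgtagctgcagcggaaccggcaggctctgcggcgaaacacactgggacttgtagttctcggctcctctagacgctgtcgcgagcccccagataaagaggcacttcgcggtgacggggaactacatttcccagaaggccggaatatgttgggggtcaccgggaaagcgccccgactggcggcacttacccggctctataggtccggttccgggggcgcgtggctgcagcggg
The CHPT1 promoter held 4 GC boxes and that of PEMT 1, and 45.0% of 35116 RefSeq promoters held at least 1. The STAT motif TTCNNNGAA, looked for because the study deals with STAT3, was absent from the CHPT1 promoter and matched once in that of PEMT, 56 bases before the start, as in 7.66% of all promoters. The other motifs, searched on both strands like these, were TTCCNGGAA (held by 1.15% of all promoters), TTTCCCGC (by 1.63%), TCACNCCAC (by 1.13%), CCAAT (by 34.6%), TTTCGCGC (by 0.515%), TTTGGCGC (by 0.652%), TTTGAA (by 15.2%), TTCGAA (by 1.45%) and CTTTGTT (by 5.20%). Neither of the promoters printed held any of them. TTCCNGGAA is a narrower form of the STAT motif. The 11 motifs were chosen after the members' values had been seen, and the GC box was set in capitals after its matches had been counted. No factor's binding was measured in these files.

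CHKA and CHKB phosphorylate choline, and ETNK1 phosphorylates ethanolamine. CHKA was at 10.04, 9.25 and 9.83 FPKM in Scramble, at 10.27, 10.74 and 9.89 after Si-FIBP#1 and at 11.92, 12.38 and 10.68 after Si-FIBP#2. It rose after Si-FIBP#2, whose 3 samples all lay above Scramble, by 0.24 (SE 0.07, limma adjusted p = 0.0241), and the difference after Si-FIBP#1 was 0.08 (SE 0.07, adjusted p = 0.421). The difference between the siRNAs, 0.16 (95% interval -0.01 to 0.33), did not pass (adjusted p = 0.182). The call for Si-FIBP#2 was lost with median ratio scaling and without Scramble replicate 2 or 3 or Si-FIBP#2 replicate 1 or 2, with adjusted p up to 0.158.

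CHKB was the least abundant member, at 4.56 to 6.56 FPKM in Scramble, 5.81 to 6.39 after Si-FIBP#1 and 6.52 to 8.13 after Si-FIBP#2. The groups overlapped, and the differences of 0.09 (95% interval -0.21 to 0.38) and 0.25 (-0.04 to 0.54) did not pass. Its level was spread over 7 transcripts that each held at least 10% of the gene in some group, the largest being ENST00000492582 with 19.5% in Scramble. In release 29 that transcript is typed as a retained intron, and only ENST00000406938 of CHKB is typed as protein-coding. ENST00000406938 averaged 0.72 FPKM in Scramble, 0.23 after Si-FIBP#1 and 0.89 after Si-FIBP#2. Most of the CHKB sum therefore lay in transcripts not typed as coding, and the sum is not a level of coding mRNA. The read-through gene CHKB-CPT1B, which shares exons with CHKB and was at 1.11 to 3.32 FPKM, makes the division of fragments between the 2 uncertain.

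ETNK1 was at 22.86, 26.93 and 23.74 FPKM in Scramble, at 20.44, 22.10 and 21.63 after Si-FIBP#1 and at 23.70, 23.45 and 21.63 after Si-FIBP#2. The 3 Si-FIBP#1 samples lay below Scramble, by a difference of -0.19 (SE 0.07) that did not pass at a limma adjusted p of 0.062. It passed with TPM scaling, with median ratio scaling and without Scramble replicate 1, down to an adjusted p of 0.02. The difference after Si-FIBP#2 was -0.09 (SE 0.07, adjusted p = 0.338). Its long transcript ENST00000266517 was at 15.24 to 16.27 FPKM in Scramble, 14.48 to 17.73 after Si-FIBP#1 and 16.80 to 19.22 after Si-FIBP#2. All 3 Si-FIBP#2 samples lay above Scramble, by a difference of 0.16 (SE 0.09) that did not pass at a limma adjusted p of 0.261. The short ENST00000672951 (910 bases) was at 3.45, 4.46 and 2.79 FPKM in Scramble, at 0.36, 1.82 and 0.46 after Si-FIBP#1 and at 2.14, 0.20 and 1.12 after Si-FIBP#2. It fell by 1.35 (SE 0.39) after Si-FIBP#1, at a limma adjusted p of 0.0399, and the difference of -1.18 after Si-FIBP#2 did not pass (0.0678). Between about 3 and 72 fragments stood behind these values.

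PCYT1A, the rate-limiting cytidylyl transferase of the choline branch, was among the steadiest members. It was at 52.05, 45.33 and 47.89 FPKM in Scramble, at 46.16, 48.86 and 52.14 after Si-FIBP#1 and at 50.88, 55.58 and 47.80 after Si-FIBP#2. The samples of the 3 groups were mixed. The differences were 0.02 (95% interval -0.15 to 0.19, limma adjusted p = 0.858) and 0.08 (-0.09 to 0.25, adjusted p = 0.384). Its transcript ENST00000431016 was at 28.44 to 30.99 FPKM in all 9 samples. The antisense gene AC069257.1, which lies within PCYT1A, averaged 6.84, 0.00 and 0.19 FPKM in the 3 groups, with 20.51 as its highest value. Its part in the PCYT1A level was not tested.

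PCYT2, the cytidylyl transferase for ethanolamine, was at 20.90, 21.22 and 21.56 FPKM in Scramble, at 24.28, 21.90 and 21.50 after Si-FIBP#1 and at 21.44, 17.66 and 19.95 after Si-FIBP#2. The groups overlapped, and the differences of 0.08 (95% interval -0.09 to 0.26) and -0.11 (-0.28 to 0.07) did not pass. Of its 7 tested transcripts, 2 were higher and 1 lower after Si-FIBP#1, and 1 was higher after Si-FIBP#2, against 20.7% and 19.1% called over all transcripts. ENST00000571105 was at 1.96, 3.20 and 2.21 FPKM in Scramble, at 5.79, 4.45 and 5.93 after Si-FIBP#1 and at 4.12, 6.06 and 5.18 after Si-FIBP#2, so that all 6 depleted samples lay above Scramble. It rose by 0.89 (SE 0.18, limma adjusted p = 0.0092) and by 0.83 (SE 0.18, adjusted p = 0.0137). ENST00000572995 rose after Si-FIBP#1 by 0.97 (SE 0.21, adjusted p = 0.0141), and after Si-FIBP#2 its difference was 0.04 (adjusted p = 0.92). ENST00000538721 fell by 0.74 (SE 0.22) after Si-FIBP#1, at an adjusted p of 0.0443, and its difference after Si-FIBP#2 was -0.06 (0.876). These values were estimated from fragments that overlapping transcripts share, which adds error that the test sees only as spread between samples.

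**Figure D2:**
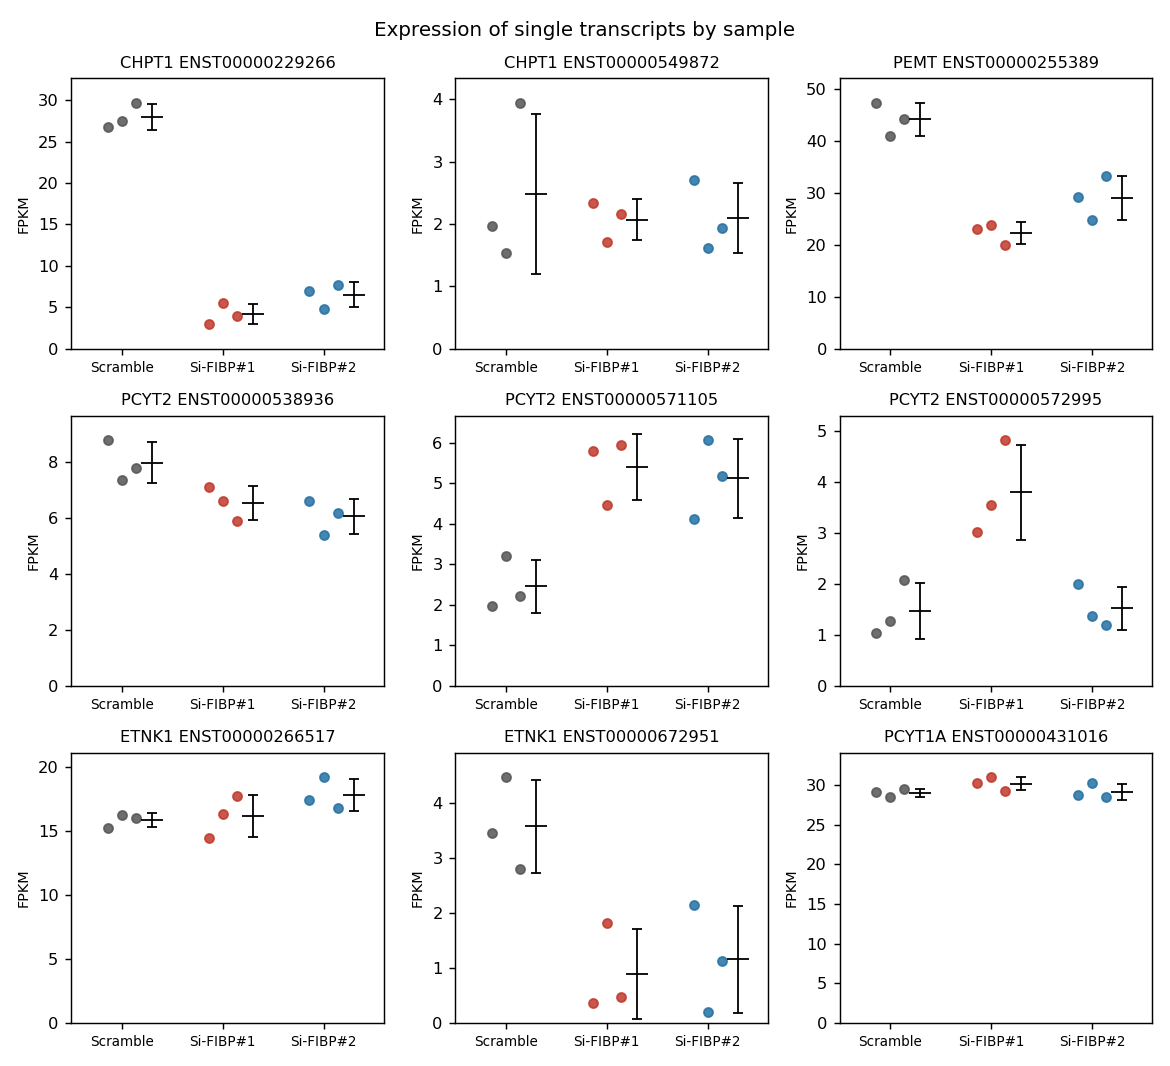
FPKM (vertical axes, from 0, each panel on its own scale) of 9 transcripts of CHPT1, PEMT, PCYT2, ETNK1 and PCYT1A by sample, with points for samples and the black bar for the mean ± SD of 3 samples. ENST00000229266 of CHPT1 and ENST00000255389 of PEMT are lower in all 6 depleted samples, ENST00000571105 of PCYT2 is higher in all 6, and ENST00000549872 of CHPT1 overlaps between the groups.

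The share that the leading transcript takes of its gene was compared between the 6 depleted and the 3 Scramble samples by a two-sided exact permutation test, whose smallest possible p is 0.0238. For ETNK1 the share was higher by 11.7 percentage points, from 64.9% to 75.5% and 77.8%, and for PCYT2, with ENST00000538936, it was lower by 7.71 points, at 34.6% to 42.0% in Scramble and 27.4% to 31.0% in the depleted samples. Both reached an exact p of 0.0238, which became 0.0952 after adjustment over the 8 members other than CHPT1. The exact p of the other 6 ran from 0.119 for CHKB to 1 for CEPT1.

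Counted over the 8 members other than CHPT1, 1 was lower after Si-FIBP#1 (PEMT) and none was higher, and after Si-FIBP#2 1 was lower (PEMT) and 2 were higher (CHKA and SELENOI). By limma at an unadjusted p under 0.05, the numbers were 2 of 8 and 3 of 8 in either direction, against 54.5% and 55.2% of all genes. At an adjusted p under 0.05, 19.9% of all genes were lower and 27.8% higher after Si-FIBP#1, and 17.7% were lower and 31.1% higher after Si-FIBP#2, so the members' counts do not exceed these shares. None of the 8 was called with over 2-fold, against 5.66% and 5.05% of all genes. Their median differences were 0.08 and 0.14, beside 0.07 and 0.11 over all genes. Among 34 tested transcripts of the 8, 7 were called after Si-FIBP#1, 3 higher and 4 lower, and 2 after Si-FIBP#2, 1 in each direction. One of the 3 higher, ENST00000545121 of CEPT1, was at 0.00 FPKM in Scramble and 1.07, 1.08 and 1.13 after Si-FIBP#1, and passed the filter only through that group. Over all transcripts, 20.7% and 19.1% were called.

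**Figure D3:**
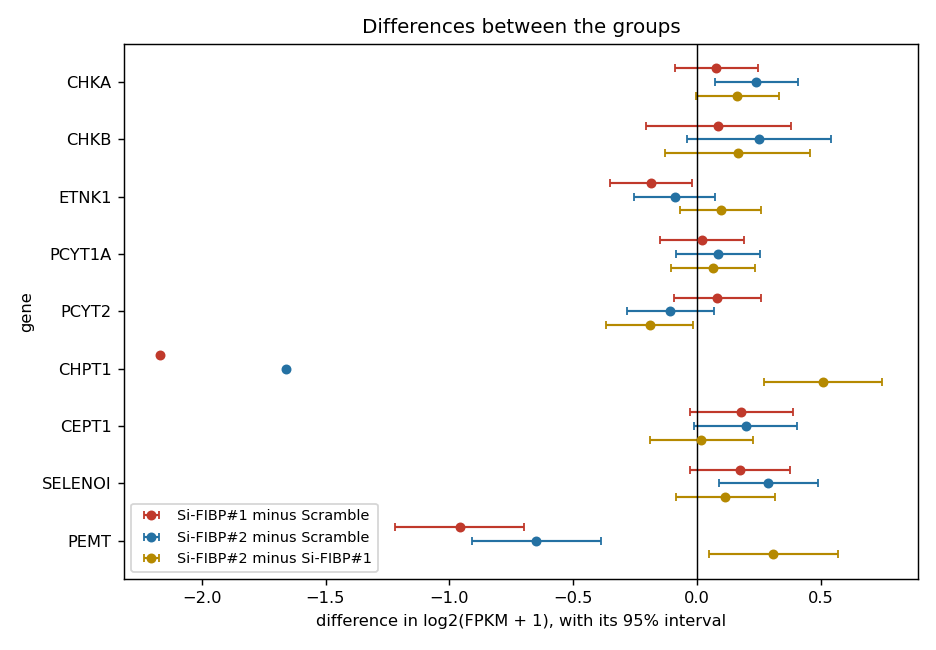
Differences in log2(FPKM + 1) between the groups (horizontal axis) for the 9 genes, as points with 95% intervals from limma (none for CHPT1 against Scramble, which was chosen by those differences), for each siRNA against Scramble and for Si-FIBP#2 against Si-FIBP#1. CHPT1, at -2.17 and -1.66, and PEMT, at -0.96 and -0.65, lie left of 0 with both siRNAs, and the other 7 genes lie between -0.19 and 0.29.

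Around these 9 genes, 84 genes of 10 lists cover the uptake of choline, the supply of the lipid backbone, remodelling, breakdown and related lipids, and 61 of them passed the filter. With Si-FIBP#1, 22 rose and 12 fell, and after Si-FIBP#2, 26 rose and 12 fell. Some of these genes passed the filter only through the side where they were higher, so they had to differ. Without them the numbers were 20 and 11 after Si-FIBP#1 and 23 and 11 after Si-FIBP#2. They were SLC44A3 and SLC44A5 with both siRNAs and GDPD5 after Si-FIBP#2, which passed only through depleted samples, and GDPD3 with both, which passed only through Scramble. Over all genes, 572 of 4170 higher and 91 of 2976 lower calls after Si-FIBP#1 were of this kind, and 624 of 4653 and 89 of 2656 after Si-FIBP#2. The median differences of all 61 list genes that passed the filter were 0.23 and 0.26, beside 0.07 and 0.11 over all genes. Of all genes, 27.8% rose and 19.9% fell after Si-FIBP#1, and 31.1% rose and 17.7% fell after Si-FIBP#2, the shares against which this count and those of the single lists stand. Nothing particular to a list is drawn from them. Calls with over 2-fold were limited to Si-FIBP#1, for SLC44A1, GPAT2 and GPAT3, which fell, and GDPD1, which rose.

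Choline enters the cell through transporters, of which SLC44A1 is the widely expressed one. SLC44A1 was at 6.22, 6.32 and 6.24 FPKM in Scramble, at 2.35, 2.43 and 3.01 after Si-FIBP#1 and at 8.57, 9.23 and 7.77 after Si-FIBP#2. The 3 groups did not overlap and the siRNAs went apart: SLC44A1 fell by 1.02 after Si-FIBP#1 and rose by 0.39 after Si-FIBP#2 (limma adjusted p = 0.00835). Of the 5 uptake genes tested, 3 rose after Si-FIBP#1 and 4 after Si-FIBP#2. Of these, 2 (SLC44A3 and SLC44A5) stayed under 1 FPKM in every Scramble sample and passed the filter only through the depleted groups, so that their direction was set by the filter, and 1 and 2 remained without them. SLC44A2, a relative of SLC44A1, rose by 0.38 and 0.40. Among the other head group enzymes, the kinase ETNK2 was the only one of 4 genes to pass the filter, and it rose by 0.37 after Si-FIBP#2 (adjusted p = 0.0197). That call was lost without Scramble replicate 2 (0.0617), Scramble replicate 3 (0.0551) or Si-FIBP#2 replicate 2 (0.0621), and by median ratio scaling (0.0623).

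Diacylglycerol, the partner of CDP-choline, is made by acylation of glycerol-3-phosphate and then removal of its phosphate. Of 12 genes of this supply, 4 rose and 3 fell after Si-FIBP#1, and 5 rose and 3 fell after Si-FIBP#2. GPAT3, an acyltransferase of the first step, was at 31.20, 29.18 and 27.63 FPKM in Scramble, at 11.58, 10.27 and 10.20 after Si-FIBP#1 and at 24.77, 12.86 and 21.81 after Si-FIBP#2, and fell by 1.38 and 0.59. GPAT2 averaged 19.8 ± 2.04, 7.77 ± 0.65 and 13.3 ± 0.94 FPKM (SD, n = 3) and fell by 1.24 and 0.54. For both genes all 6 depleted samples lay below Scramble. The call of GPAT3 after Si-FIBP#2 was lost without Scramble replicate 1 (adjusted p = 0.0744) or 2 (0.0615), with no filter (0.0833) and with only the groups compared (0.0545), and both genes lost theirs with Ensembl transcripts only (0.0590 for GPAT3 and 0.0829 for GPAT2). The most abundant genes of the list, AGPAT1 (differences of 0.05 and 0.16) and LPIN1 (0.17 and 0.16), did not pass with either siRNA. All Si-FIBP#2 samples of AGPAT1 lay above Scramble. Its difference there passed with TPM scaling (limma adjusted p = 0.0470), a filter of 5 FPKM (0.0474) and the replicate block (0.0382). It also passed without Scramble replicate 1 (0.0272) or Si-FIBP#1 replicate 3 (0.0428).

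In the branch that uses CDP-diacylglycerol, 3 of 6 genes rose with each siRNA and none fell. CDIPT, which makes phosphatidylinositol, rose by 0.39 and 0.34, and CRLS1, the cardiolipin synthase, did not pass (0.06 and 0.01). Of the 3 genes of the phosphatidylserine route, 1 rose after Si-FIBP#1 and 3 after Si-FIBP#2. PTDSS1, which turns phosphatidylcholine into phosphatidylserine, rose by 0.24 and 0.29, and PTDSS2, which starts from phosphatidylethanolamine, rose by 0.59 after Si-FIBP#2 while its difference of 0.26 after Si-FIBP#1 did not pass.

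Lysophospholipid acyltransferases exchange the fatty acids of finished phospholipids. Of 7 such genes, 1 rose and 2 fell after Si-FIBP#1, and 2 rose and 2 fell after Si-FIBP#2. LPCAT3 rose by 0.45 and 0.33, and MBOAT7 rose by 0.51 after Si-FIBP#2, while its difference of 0.07 after Si-FIBP#1 did not pass. Of the 13 genes of phosphatidylcholine breakdown, 6 rose and 2 fell after Si-FIBP#1, and 5 rose and 1 fell after Si-FIBP#2. Without GDPD3 and GDPD5, whose calls the filter set, 6 rose and 1 fell, and 4 rose and 0 fell. GDPD1, a lysophospholipase D, averaged 2.28 ± 0.41 FPKM in Scramble, 5.71 ± 0.45 after Si-FIBP#1 and 4.04 ± 1.01 after Si-FIBP#2 (SD, n = 3), and rose by 1.04 and 0.61. LYPLA2 rose by 0.70 and 0.79, while its relative LYPLA1 fell by 0.53 after Si-FIBP#1. The difference of LYPLA1 after Si-FIBP#2 was -0.21, from 106.33, 68.65 and 101.42 FPKM, beside 102.35 to 107.51 in Scramble. Replicate 2 thus stood apart from the other Si-FIBP#2 samples. Without that replicate LYPLA1 was higher after Si-FIBP#2 than after Si-FIBP#1 by 0.52 (limma adjusted p = 2.7e-04).

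Phosphatidylcholine is also the head group donor for sphingomyelin. Of the 4 genes of this list, 1 rose and 2 fell after Si-FIBP#1, and 2 rose and 2 fell after Si-FIBP#2. CERT1, the ceramide carrier, rose by 0.47 after Si-FIBP#2. Its Si-FIBP#1 samples lay above Scramble too, but that difference was called only under some alternatives. With only the groups compared it was 0.29 (limma adjusted p = 0.0316). SAMD8, which makes the ethanolamine analogue, rose by 0.84 and 0.33. The sphingomyelin synthases SGMS1 and SGMS2 fell with both siRNAs, SGMS1 by 0.81 and 0.52 and SGMS2 by 0.26 and 0.35. With Ensembl transcripts only, SGMS1 differed by -0.09 after Si-FIBP#2 (limma adjusted p = 0.656) and SGMS2 by -0.26 after Si-FIBP#1 (0.236), and neither was then called. The call of SGMS2 after Si-FIBP#1 was also lost without Scramble replicate 1 (0.0723), Scramble replicate 3 (0.0606) or Si-FIBP#1 replicate 1 (0.0819). That of SAMD8 after Si-FIBP#2 was lost without any 1 Scramble sample (0.0604 to 0.0971), without Si-FIBP#1 replicate 2 or 3 (0.0569 and 0.0534) and without Si-FIBP#2 replicate 2, where the difference was 0.18. It was also lost by median ratio scaling (0.129), with no filter (0.0944) and with only the groups compared (0.0743). CEPT1 and SELENOI also finish ether lipids. Of 6 ether lipid genes, 1 rose and 1 fell after Si-FIBP#1, and 1 rose and 3 fell after Si-FIBP#2. PEDS1, the plasmalogen desaturase, was 1 of these 3. Its Si-FIBP#2 samples overlapped Scramble, and its call was lost under 10 of 17 alternatives. DHRS7B, which reduces the ether lipid precursor, rose by 0.42 and 0.69 (the first not called with Ensembl transcripts only, at 0.30), and GNPAT fell by 0.27 (SE 0.07) after Si-FIBP#2. FAR1, which makes fatty alcohols, fell by 0.78 and 0.51. SGMS1, SGMS2 and FAR1 are named after their values were seen. Of the 4 tested genes of methyl supply, AHCY, which clears the product of methylation by PEMT and other enzymes, fell by 0.28 and 0.26, and MAT2A, which makes the methyl donor, did not pass (-0.03 and -0.01). In this list 2 genes rose after Si-FIBP#1 and none after Si-FIBP#2. The call of MAT2B, 1 of the 2, was lost under 7 of 17 alternatives, among them TPM scaling (limma adjusted p = 0.103) and median ratio scaling (0.233). That of ALDH7A1, the other, was lost under 0 of 17.

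**Figure D4:**
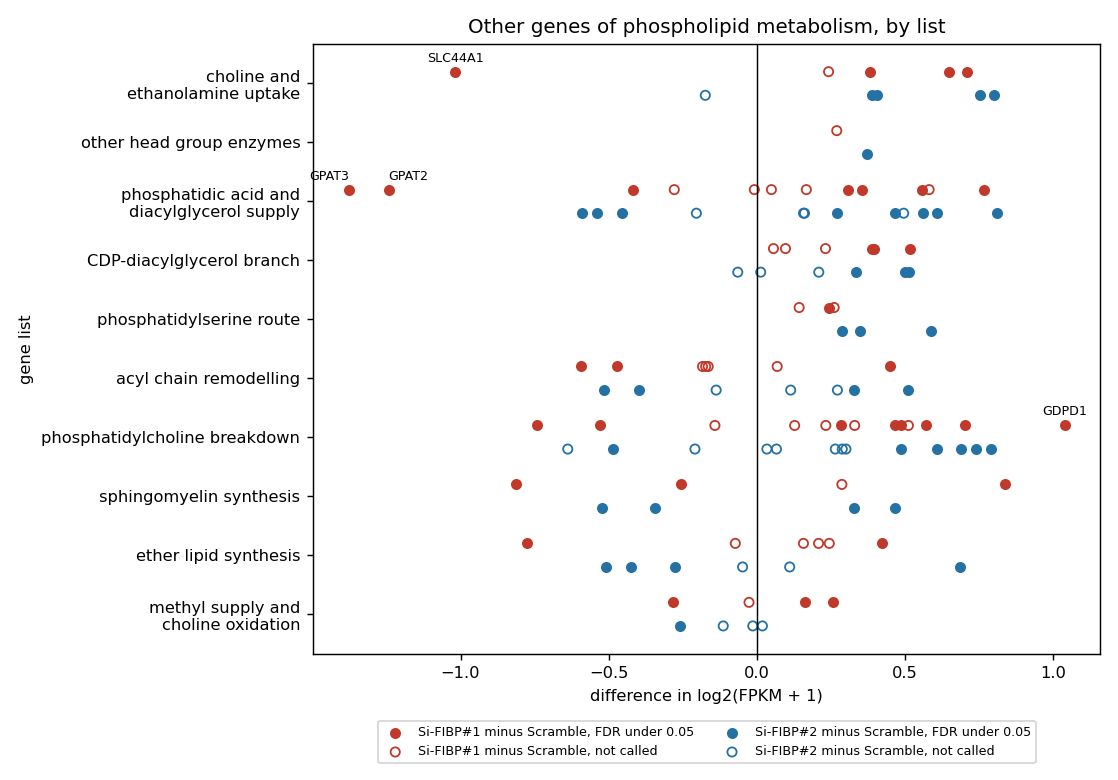
Differences in log2(FPKM + 1) against Scramble (horizontal axis) of 61 genes in 10 lists, with filled points for genes called by limma at an adjusted p under 0.05 and open points for the others. Most points lie within 1 of 0, and the 4 named genes, SLC44A1, GPAT2, GPAT3 and GDPD1, lie beyond it after Si-FIBP#1.

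To see which genes followed the same pattern as CHPT1, each tested gene was centred on its Scramble mean, and the root mean square difference from CHPT1 was taken over the 9 samples. The 5 closest genes were SPAG5 (0.07), PRPS1 (0.11), TYMS (0.12), RRM2 (0.13) and KIF20A (0.19, all in log2 units). SPAG5, a protein of the mitotic spindle, was at 60.8 ± 4.46, 12.8 ± 1.23 and 19.4 ± 2.36 FPKM in the 3 groups (SD, n = 3). TYMS and RRM2, which supply nucleotides for DNA synthesis, stood at 21.4% and 22.4% of the Scramble level after Si-FIBP#1, and at 34.4% and 27.8% after Si-FIBP#2. The measure rests largely on the size of the fall against Scramble, by which CHPT1 was chosen. The closest genes therefore had to show a similar fall, and their percentages are no separate result. How common such functions are among the genes lower with both siRNAs was not counted. This is a description over samples that share their libraries, and it was not tested.

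**Figure D5:**
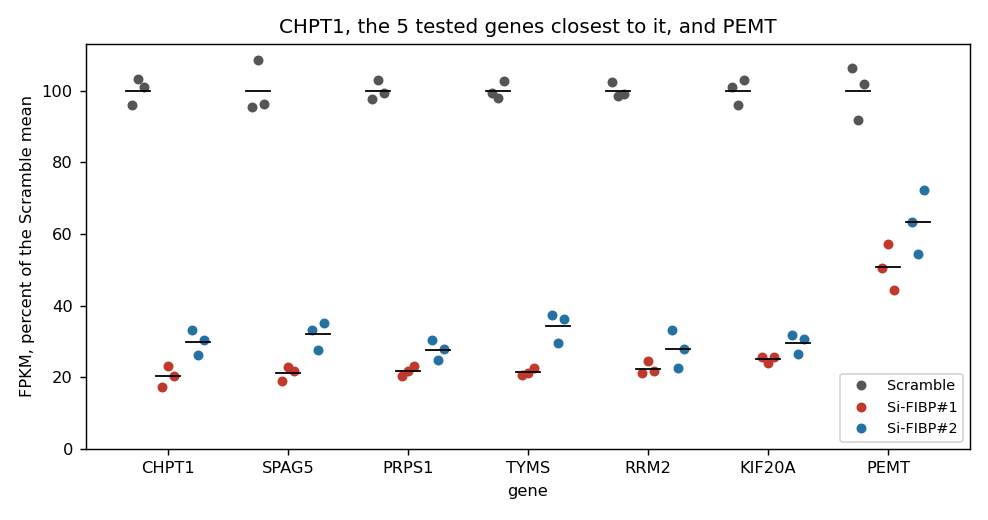
FPKM as a percent of the Scramble mean (vertical axis, from 0) in each sample for CHPT1, the 5 tested genes closest to it in pattern, and PEMT, with points for samples and black lines for group means. The first 6 genes lie at 20.2% to 25.1% of Scramble after Si-FIBP#1, and PEMT lies at 50.7%. The 5 genes were picked for a pattern like that of CHPT1, so their nearness to it was set by the choice.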

How the data were processed

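The 9 RNA-seq samples of H1299 cells were put in 3 groups by their labels. The libraries were poly(A) selected and sequenced in pairs of 150 bases. For each sample the deposited table gives FPKM, rounded by the authors to 2 decimals, for 244443 transcripts, Ensembl and assembled. The submitters' processing notes name HISAT2 and StringTie, and the build, the annotation release and any use of strand are not given in the sources used here. The unit was taken from the values.

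FPKM were summed per gene. Rows with no gene symbol, 0.23% to 0.29% of all FPKM, were kept as their own genes. Genes that reached 1 FPKM in 3 or more samples entered the test, made on log2(FPKM + 1) with limma 3.58.1 (R 4.3.3, with a mean-variance trend, all 9 samples in the fit), with Benjamini-Hochberg adjustment over all 14985 genes or 47662 transcripts. A call is an adjusted p under 0.05, and the 2-fold calls add a difference over 1. The members, lists and comparisons were chosen with earlier results of these data known. Genes named beyond the members are FIBP, those of the lists called with over 2-fold against Scramble, the 2 most abundant of each list and the 5 closest to CHPT1. Of the genes that overlap a member, only SYCP3, CHKB-CPT1B, DRAM2 and AC069257.1 are named, the last 2 after their values were seen. The list genes that differed between the siRNAs are named in the closing section for that reason, and MAT2B, ALDH7A1 and PEDS1 are also named before it. One of the marker genes is not reported here. Transcripts named hold at least 10% of their gene in some group, except ENST00000549128, which like ENST00000545121, SGMS1, SGMS2, FAR1, SLC44A3, SLC44A5, GDPD3 and GDPD5 in the text was added after its values were seen.

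Depth was estimated from the step that 1 fragment is worth in 8100 genes with a single transcript. FPKM carry no counting interval. On simulated data with 200 genes changed by 1.5, 95.5% and 94.5% were recovered for Si-FIBP#1 and Si-FIBP#2 among 14617 genes. Recovery meant a call with over 2-fold in the right direction. Far fewer genes changed there than in these samples, and by more than any member but CHPT1. The simulation therefore does not tell how often small differences are missed. Positions come from GENCODE release 29 (GRCh38), linked by Ensembl identifiers. Transcript models can differ from those quantified: ENST00000431016 is 5546 bases long in the deposited tables and 1482 in release 29, and ENST00000672951 was not found in it. Of the 9 members, 8 matched the RefSeq promoter table, all but CHKA. Alternatives were TPM or median ratio scaling, a pseudocount of 0.1, no filter or 5 FPKM, only the groups compared, the replicate number as a block, Ensembl transcripts only and leaving out each sample. Same-numbered samples did not deviate together (correlations of -0.06 to 0.10 over 9 pairs), so the numbers were not taken to pair the samples. Figures used Python 3.11.15 and matplotlib 3.10.9, and exact tests scipy 1.17.1.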

Additional observations from a re-analysis of the deposited data

Results flagged for a closer look

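The level with Si-FIBP#2 differed from that with Si-FIBP#1, by limma at an adjusted p under 0.05, for CHPT1 among the 9 members and for 13 of the 61 other genes of the lists. Over all genes, 9.58% were higher and 5.8% lower in this comparison. Differences are in log2(FPKM + 1), Si-FIBP#2 minus Si-FIBP#1. CHPT1 was higher by 0.51 (adjusted p = 0.0123). SLC44A1, the choline transporter, had the largest difference of the lists, 1.41 (8.7e-05). Of the 12 genes of the diacylglycerol supply, 3 were called higher with Si-FIBP#2, GPAT2 by 0.70 (0.00176), GPAT3 by 0.79 (0.0226) and LPIN2 by 0.25 (0.0251). The other 9 were not called. Of the remodelling acyltransferases, LCLAT1 was higher by 0.87 (0.00142), MBOAT7 by 0.44 (0.00831) and MBOAT1 by 0.34 (0.0353), and LPCAT1 differed by -0.35 (0.0374). FAR1, which fell with both siRNAs against Scramble, was less low after Si-FIBP#2 by 0.27 (0.0313), and PEDS1, the plasmalogen desaturase listed under an older symbol, differed by -0.63 (0.0233). SAMD8 differed by -0.51 (0.0172), MAT2B by -0.28 (0.00825) and ALDH7A1 by -0.24 (0.0233). Of the 13 list genes, 4 kept their call under every alternative (SLC44A1, LCLAT1, MBOAT7 and MAT2B), while the call was lost under 12 of 16 alternatives for MBOAT1, under 10 of 17 for LPCAT1, 8 for GPAT3 and for FAR1, 6 for LPIN2 and for ALDH7A1, 5 for PEDS1 and for SAMD8, and 1 for GPAT2.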

How the results depend on the processing

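Under the alternatives, 459 differences of single members were recomputed. Of these, 444 kept their side of the threshold, 10 called ones were no longer called, 4 became called and 0 called ones reversed. The remaining 1 moved by more than the spread (CHPT1 after Si-FIBP#1, -2.30 at a pseudocount of 0.1). Some small differences among the 444 that were not called changed sign. After Si-FIBP#1, that of CHKB ran from -0.05 to 0.17 and that of PCYT1A from -0.05 to 0.07. CHPT1 against Scramble carries no test, yet 16 of its 17 differences for Si-FIBP#1 and all 17 for Si-FIBP#2 are among the 444. CHPT1 was chosen by those differences, so they say nothing about the steadiness of the tests. Among the 8 members tested against Scramble, calls after Si-FIBP#1 rose from 1 to 2 by TPM and by median ratio scaling, which added ETNK1, and 1 (PEMT) was then past 2-fold. Calls after Si-FIBP#2 fell from 3 to 1 by median ratio scaling. That scaling moved the median difference of all genes from 0.11 to 0.01 after Si-FIBP#2. Leaving out 1 sample gave 1 to 2 calls and 0 to 1 past 2-fold after Si-FIBP#1, 1 to 3 calls after Si-FIBP#2, and 1 to 2 of 9 between the siRNAs. PEMT was called against Scramble under every alternative for both siRNAs.

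Member transcripts called went from 7 to 2 after Si-FIBP#1 and from 2 to 4 after Si-FIBP#2 with a filter of 5 FPKM, and to 4 after Si-FIBP#2 by median ratio scaling. Leaving out 1 sample gave 3 to 7 and 2 to 4. The difference of CHPT1 transcript ENST00000549872 ran from -0.32 to 0.16 for Si-FIBP#1 and from -0.33 to 0.16 for Si-FIBP#2, reversing without Scramble replicate 3. That of ENST00000549128 after Si-FIBP#2 ran from -1.41 without that sample to 0.013 without Scramble replicate 2. With the replicate block, member transcripts called were 4 and 4, and the block changed no other count by over 1.5 times. As same-numbered samples did not deviate together, this does not bear on the strength of those results.

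Between the siRNAs, pathway genes higher with Si-FIBP#2 went from 8 to 4 when only the groups compared or only Ensembl transcripts were used. Those lower went from 5 to 3 by TPM scaling or with only the groups compared, and to 2 with no filter. Leaving out 1 sample gave 4 to 8 higher and 1 to 8 lower. Of 3066 recomputed differences of single list genes in the 3 comparisons, 134 called ones were no longer called, 52 became called and 0 called ones reversed. Changes of sign among differences that were not called are not in these numbers. Against Scramble, 26 of 34 called list genes kept their call after Si-FIBP#1 under every alternative they entered, and 28 of 38 after Si-FIBP#2. Over all genes the comparison between the siRNAs had 1268 to 2821 calls, and 73 to 128 past 2-fold. The second range does not include the pseudocount of 0.1, given next, and its highest value was without Si-FIBP#2 replicate 2. A pseudocount of 0.1 gave 1498, 1411 and 172 genes past 2-fold in the 3 comparisons, from 848, 757 and 84, as it enlarges the differences of low genes. The cause of the other changes was not tested. With 3 samples a group and FPKM rounded to 2 decimals, transcripts near 1 FPKM rest on few fragments, and small differences there were not detectable.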
